A study of Mus musculus with 8 samples.

Results

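The 10 genes described here form the core of the mammalian circadian clock: Arntl (whose protein is BMAL1), Clock, Per1, Per2, Per3, Cry1, Cry2, Nr1d1, Nr1d2 and Dbp. They were chosen by name, with earlier results of these data known, from the 21368 genes that the array names. All 10 were well above background on 8 of 8 arrays and were tested among 16618 genes. The clock is a transcriptional feedback loop that runs in nearly every cell. BMAL1 and CLOCK bind E-boxes as a pair and switch on the Per, Cry and Nr1d genes and Dbp. PER and CRY proteins then block that pair, and the REV-ERB proteins made from Nr1d1 and Nr1d2 shut down Arntl through a separate DNA element. DBP carries the rhythm to further genes through D-boxes. Across the day Arntl transcripts therefore run opposite to those of Nr1d1 and Dbp. The suprachiasmatic nucleus of the hypothalamus sets the phase of this loop, and the hippocampus has a clock of its own.

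Hippocampal RNA came from 8 female mice on a C57BL/6J background, each hybridised to its own Agilent 1-colour microarray. All 8 were littermates, without the transgenes, of mice of the Alzheimer's disease line APPswe695/PSEN1dE9, so no animal carried the disease transgenes. Control mice (n = 4) were untreated and 19 weeks old. Hydroxyurea mice (n = 4) drank hydroxyurea, an inhibitor of ribonucleotide reductase, in their water at 45 mg/kg/day for 10 weeks, beginning at an age of 9 to 14 weeks. Hydroxyurea 1 and 2 were 24 weeks old at the end and Hydroxyurea 3 and 4 were 19 weeks old. The mice were kept in 12 hours of light and 12 hours of dark. The hour at which each hippocampus was taken is not given in the sources used here, so the place of each mouse in the daily cycle is unknown and its part in the values below was not tested. The numbered animals are separate samples, but nothing ties a number in one group to the same number in the other.

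The arrays shared 1 slide and 1 scan, with every Control array in its row 1 and every Hydroxyurea array in its row 2, and a row effect cannot be told apart from treatment. The 75th percentile of the signal, to which each array was scaled, ran from 1052 on Hydroxyurea 2, the dimmest array, to 2417 on Control 3, the brightest, a ratio of 2.30. Control 1 had the noisiest array, with a median coefficient of variation of replicate spots of 10.9%, against 3.19% to 3.56% elsewhere. Each member was read by 1 spot per probe, and only Dbp had more than 1 probe. All 8 fixed markers of hippocampal neurons were above background and tested, among them Prox1 of granule cells and Wfs1 of CA1 cells. In such bulk tissue, fewer cells of a type and less RNA per cell cannot be told apart.

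The loop closes through DNA elements, whose letters were searched for around the genes' start sites. RefSeq promoter windows (GRCm38.p6, 250 bases before to 50 after a start) were held for 9 of the 10 members, 13 windows in all, and were searched on both strands. The E-box CACGTG, bound by BMAL1 with CLOCK, lay in windows of Per1 and Cry1, against 7.15% of 32851 windows of all genes. The related CACGTT lay in windows of Cry1, Cry2 and Nr1d1, against 4.68% of all windows. The D-box, searched as TTATGTAA or TTACGTAA, was matched only by Per3 among the members, at positions -205 and -158 from the start, against 1.06% of all windows. The element of REV-ERB and ROR proteins, searched as TAGGTCA or TGGGTCA, was matched only by Arntl, at 30 bases after the start, against 6.45% of all windows. The cyclic AMP response element TGACGTCA, found in 1.79% of all windows, was matched by 0 members. A match says only that the letters are present. The 4 stretches printed here show where such letters lie. Whether they act in these mice was not tested, and the correlations of gene pairs below were run without regard to them. Per1, Cry1 and Per3 are given over the 250 bases before the start and Arntl over the 27 bases around its match, 5′ to 3′ on the gene's strand with the matches in capitals.
Per1 chr11:69098699-69098948 (plus strand): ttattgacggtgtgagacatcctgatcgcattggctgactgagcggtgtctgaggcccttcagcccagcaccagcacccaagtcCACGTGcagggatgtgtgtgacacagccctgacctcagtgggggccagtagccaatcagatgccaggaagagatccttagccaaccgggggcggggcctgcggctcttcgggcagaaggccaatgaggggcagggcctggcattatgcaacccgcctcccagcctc
Cry1 chr10:85185055-85185304 (minus strand): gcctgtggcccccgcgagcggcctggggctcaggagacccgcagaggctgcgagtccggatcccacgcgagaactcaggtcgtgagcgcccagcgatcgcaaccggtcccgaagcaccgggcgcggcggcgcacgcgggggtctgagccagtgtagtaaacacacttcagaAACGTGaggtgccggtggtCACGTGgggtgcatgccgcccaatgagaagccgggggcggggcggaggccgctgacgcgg
Per3 chr4:151044666-151044915 (minus strand): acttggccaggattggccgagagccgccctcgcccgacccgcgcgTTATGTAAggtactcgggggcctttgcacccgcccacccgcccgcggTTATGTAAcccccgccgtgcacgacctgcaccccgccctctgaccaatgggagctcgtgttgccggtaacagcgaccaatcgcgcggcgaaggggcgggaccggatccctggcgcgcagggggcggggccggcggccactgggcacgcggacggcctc
Arntl chr7:113207531-113207557 (plus strand): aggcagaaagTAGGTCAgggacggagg

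The first comparison asked whether 10 weeks of hydroxyurea altered the clock genes of the hippocampus. None of the 10 passed the test. Hydroxyurea means were higher for Per2, Per3, Nr1d1, Nr1d2 and Dbp and lower for Arntl, Clock, Per1, Cry1 and Cry2, and the differences ran from -0.13 for Clock to 0.18 for Dbp on the log2 scale. Adjusted p-values of limma over all genes ran from 0.591 for Dbp to 0.997 for Cry1. Across all genes 0 of 16618 (0%) passed an adjusted p of 0.05 in limma, while 1643 had an unadjusted p under 0.05. Of the members, 0 had an unadjusted p under 0.05 in either direction, against 3.53% of all genes higher and 6.36% lower in the Hydroxyurea group. The 4 Hydroxyurea values lay apart from the 4 Control values for 0 members, against 2.38% of all genes with every Hydroxyurea mouse higher and 5.11% with every one lower. The median log2 difference was 0.002 over the members and -0.004 over all genes. Under at least 1 alternative processing the sign of the difference turned for Per1, Per2, Per3, Cry1, Cry2 and Nr1d2. Intervals of 95% bound what these arrays could miss. For Cry2, the narrowest, the interval ran from -0.25 to 0.12, and for Per3, the widest, from -0.47 to 0.74. The values below are log2 processed signal minus the 75th percentile of the array. They compare mice for 1 gene and not 1 gene with another.

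**Figure D1:**
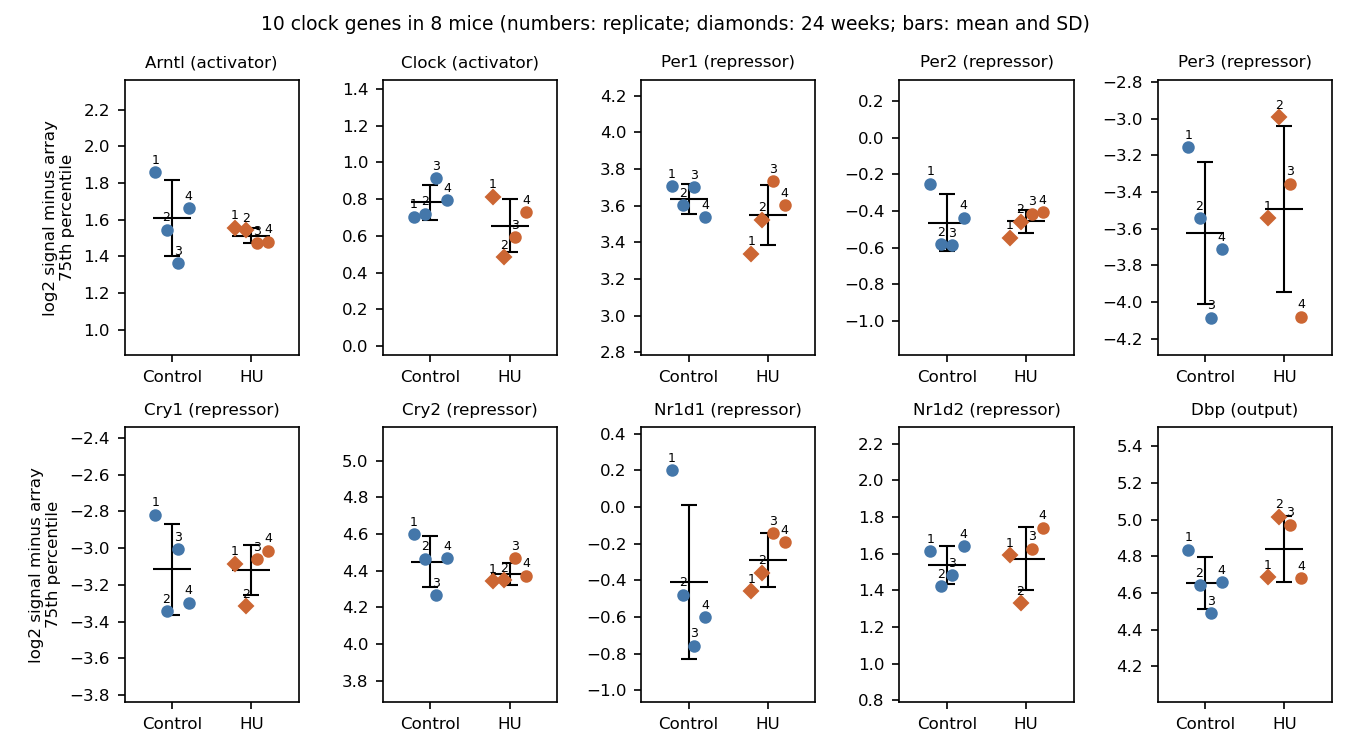
Scaled level of each clock gene (vertical axis, log2 processed signal minus the 75th percentile of the array, same span in every panel) in 4 Control mice and 4 Hydroxyurea (HU) mice, with replicate numbers beside the points, diamonds for the 2 treated mice of 24 weeks, and bars for the mean and SD of each group. The groups overlap in all 10 panels, and Control 1 is the highest mouse for Arntl, Per2, Cry1, Cry2 and Nr1d1.

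Both activators had lower means in the treated mice, and neither passed the test. Arntl, the partner without which the loop stops, read 1.86, 1.55, 1.36 and 1.66 in the 4 Control mice and 1.56, 1.54, 1.47 and 1.48 in the 4 Hydroxyurea mice, both in the order of their numbers. The treated mice lay inside the Control range and closer to each other, with an SD of 0.04 against 0.21. The Arntl difference was -0.09 ± 0.10 (log2, SE, n = 4 per group; limma adjusted p = 0.773). It was -0.01 without Control 1 and -0.18 without Control 3. Clock, which encodes the DNA-binding partner of BMAL1, read 0.70, 0.72, 0.91 and 0.80 in the Control mice and 0.81, 0.49, 0.59 and 0.73 in the Hydroxyurea mice. The lowest values belonged to Hydroxyurea 2 and 3, while Hydroxyurea 1 exceeded 3 of the 4 Control mice. The Clock difference was -0.13 ± 0.09 (SE, n = 4 per group; limma adjusted p = 0.642).

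The Period genes encode the repressors that carry cryptochromes into the nucleus, and Per1 and Per2 also respond quickly to light, glucocorticoids and neuronal activity. Per1 read 3.71, 3.60, 3.70 and 3.54 in the Control mice and 3.34, 3.52, 3.73 and 3.60 in the Hydroxyurea mice. Hydroxyurea 1 stood lowest and Hydroxyurea 3 highest of all 8, so the treated group spanned the Control group, and the difference was -0.09 ± 0.09 (SE, n = 4 per group; limma adjusted p = 0.762). Per2 read -0.25, -0.58, -0.59 and -0.44 in the Control mice and -0.55, -0.46, -0.42 and -0.41 in the Hydroxyurea mice. Control 1 was the highest and the other Control mice were spread across or below the treated ones, leaving a difference of 0.01 ± 0.09 (SE; limma adjusted p = 0.983). Per3, whose loss leaves the loop running, read -3.15, -3.54, -4.08 and -3.71 in the Control mice and -3.54, -2.99, -3.35 and -4.08 in the Hydroxyurea mice. Its range over the 8 mice, 1.09 log2 units, was the widest of the 10 genes, and its difference was 0.13 ± 0.26 (SE; limma adjusted p = 0.884). The Per3 spot was also dim, with a processed signal between 128 and 204 on the 8 arrays.

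The cryptochromes are the strongest repressors of BMAL1 and CLOCK. Cry1 read -2.82, -3.34, -3.01 and -3.30 in the Control mice and -3.08, -3.32, -3.06 and -3.01 in the Hydroxyurea mice. High and low mice occurred in both groups and the means were -3.12 in each, for a difference of -0.003 with an SE of 0.13 (n = 4 per group; adjusted p = 0.997 in limma). Cry2 read 4.60, 4.47, 4.26 and 4.47 in the Control mice and 4.34, 4.35, 4.47 and 4.37 in the Hydroxyurea mice. All treated mice fell between Control 3 and Control 1, and the difference was -0.07 ± 0.08 (SE; limma adjusted p = 0.794). Cry2 had the narrowest range of the 10 genes, 0.33 log2 units over the 8 mice.

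The REV-ERB genes close the loop that silences Arntl. Nr1d1 read 0.20, -0.48, -0.76 and -0.60 in the Control mice and -0.46, -0.36, -0.14 and -0.19 in the Hydroxyurea mice. Every treated mouse was above Control 2, 3 and 4 and below Control 1. The difference over all mice was 0.12 ± 0.20 (SE, n = 4 per group; limma adjusted p = 0.852). Without Control 1, the array with the noisiest replicate spots, it was 0.32 with an unadjusted p of 0.0172 and a limma adjusted p of 0.265. In that setting 2522 of 16618 genes had an unadjusted limma p under 0.05, against 1643 with all mice. Without Control 1 and Hydroxyurea 2 together the Nr1d1 difference was 0.35 (limma adjusted p = 0.32). Without Control 3 it was 0.01, so single Control mice set its size. Nr1d2, its close relative, read 1.61, 1.42, 1.48 and 1.64 in the Control mice and 1.59, 1.33, 1.63 and 1.74 in the Hydroxyurea mice. Hydroxyurea 2 was the lowest and Hydroxyurea 4 the highest of the 8, and the difference was 0.03 ± 0.10 (SE; limma adjusted p = 0.926).

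Dbp, the output transcription factor that binds D-boxes, had the largest difference of the 10. It read 4.84, 4.64, 4.49 and 4.66 in the Control mice and 4.69, 5.02, 4.97 and 4.68 in the Hydroxyurea mice. Hydroxyurea 2 and 3 were the highest, above Control 1, while Hydroxyurea 1 and 4 lay between Control 1 and the other Control mice. The difference was 0.18 ± 0.11 (SE, n = 4 per group; a fold of 1.14; limma adjusted p = 0.591). A second Dbp probe, which did not represent the gene in the test because its mean signal was lower, read 4.28, 4.26, 4.16 and 4.29 in the Control mice. On it the Hydroxyurea mice read 4.34, 4.59, 4.62 and 4.51, all above every Control mouse. Its difference was 0.27 ± 0.08 (SE, n = 4 per group), with an unadjusted p of 0.0108 and a limma adjusted p of 0.57 over 36750 probes. With both probes averaged the gene differed by 0.23 (unadjusted p = 0.0346; limma adjusted p = 0.536). Both Dbp probes therefore had the same direction and neither passed the adjusted threshold.

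**Figure D2:**
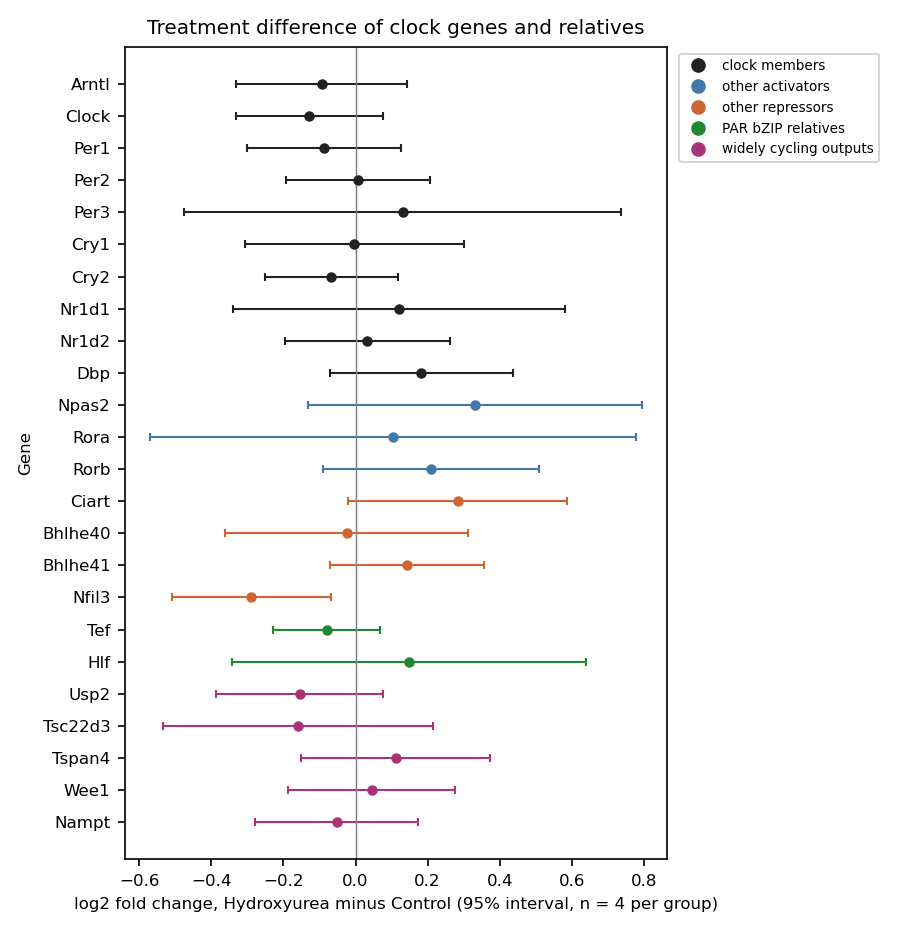
Log2 difference of Hydroxyurea minus Control (horizontal axis, points, with 95% intervals of the limma fit as bars, n = 4 per group) for the 10 clock genes and for further activators, repressors, relatives of Dbp and outputs. Every clock gene's interval includes 0, as do all others shown except that of Nfil3.

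Since Arntl runs opposite to Nr1d1 and Dbp across a day, the positive and negative arms were also set against each other within each mouse. The arms hold further genes, Clock among them, for which such an opposite daily course is not assumed here. Every gene was first centred on its mean over the 8 mice. The mean of Arntl and Clock was 0.14, -0.007, -0.001 and 0.09 in the Control mice and 0.05, -0.13, -0.11 and -0.04 in the Hydroxyurea mice. The mean of the other 8 genes was 0.24, -0.08, -0.17 and -0.07 in the Control mice and -0.06, 0.03, 0.12 and -0.02 in the Hydroxyurea mice. In Control 1 both arms were high. The first mean minus the second was -0.10, 0.07, 0.16 and 0.16 in the Control mice and 0.11, -0.16, -0.23 and -0.02 in the Hydroxyurea mice. Control 2, 3 and 4 and Hydroxyurea 1 were positive, and Control 1 and Hydroxyurea 2, 3 and 4 were negative. Group means of this difference were 0.08 ± 0.12 in Control and -0.08 ± 0.15 in Hydroxyurea (SD, n = 4 each), 0.15 apart with the Hydroxyurea group lower. It is given as a description, without a test. Leaving out each mouse in turn gave -0.21 to -0.10 for Hydroxyurea minus Control. The arms include Clock, Per3 and Dbp, whose scaled values moved with the brightness of the array (r = 0.89, -0.84 and -0.81, described below). Control 3, at 0.16, was the brightest array and Hydroxyurea 2, at -0.16, the dimmest. The part of brightness in the difference between the arms was not tested.

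**Figure D3:**
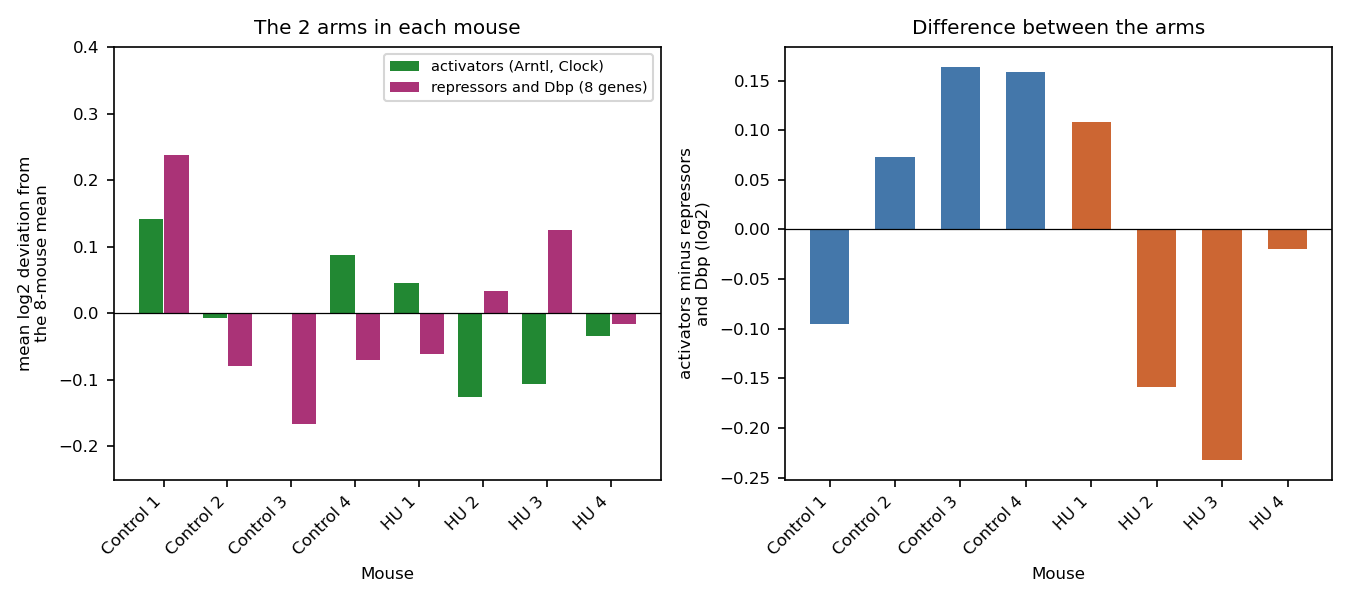
Left, mean log2 deviation from the 8-mouse mean of the activators Arntl and Clock and of the 8 repressors and outputs in each mouse (HU, Hydroxyurea). Right, activators minus repressors and outputs in the same mice, blue for Control and orange for Hydroxyurea: Control 2, 3 and 4 and Hydroxyurea 1 lie above 0 and the other 4 mice below it.

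Whether the genes varied together from mouse to mouse was examined over the 45 pairs with exact permutation of the pairings. Of these, 8 pairs had an unadjusted p under 0.05 for Pearson's r, 6 of them positive, and 1 passed after Benjamini-Hochberg adjustment over the 45. The share of such pairs among all genes was not computed, and the mice of both groups were pooled. These counts therefore do not set the clock genes apart from other genes. The pair that passed was Clock and Dbp, with r = -0.94 over 8 mice (two-sided exact permutation p = 0.000744, adjusted p = 0.0335). Spearman's rho was -0.79 (exact permutation p = 0.0279, adjusted p = 0.314), and by rho 0 of the 45 pairs passed after adjustment and 5 before it. Without Control 3 and Hydroxyurea 2, the mice farthest from the median of Clock, r was -0.84 (exact permutation p = 0.0417). Without Control 1 it was -0.95 (exact permutation p = 0.00397, adjusted p = 0.179). Median centring of the arrays gave -0.64 (adjusted p = 0.223) and quantile normalization -0.86 (adjusted p = 0.143), so of the 3 scalings run the pair passed the adjusted threshold only under the 75th percentile. Dbp read highest in Hydroxyurea 2 and 3, where Clock read lowest, and Dbp read lowest in Control 3, where Clock read highest.

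Per3 ran with Dbp at r = 0.84 (exact permutation p = 0.0127, adjusted p = 0.162) and rho = 0.81 (exact permutation p = 0.0218). Without Control 3 and Hydroxyurea 2 its r was 0.61 (exact permutation p = 0.225). Clock and Per3 ran opposite, at r = -0.76 (exact permutation p = 0.0249, adjusted p = 0.224) and rho = -0.88. The same 3 genes were those whose scaled values moved with the brightness of the array, a relation examined after the data had been seen. The scaled value already has the 75th percentile subtracted. A gene whose signal varies less than that percentile therefore tends to a negative r. Permuting the pairings does not allow for this shared term, so the p-values with brightness are given only as a description. Against the log2 of the 75th percentile, Clock had r = 0.89 (exact permutation p = 0.00285, adjusted over the 10 genes 0.0143), Per3 had r = -0.84 (exact permutation p = 0.00186, adjusted 0.0143) and Dbp had r = -0.81 (exact permutation p = 0.00898, adjusted 0.0299). Without Control 3 and Hydroxyurea 2, the brightest and the dimmest array, those values were 0.53, -0.76 and -0.46. Rank correlations were 0.83, -0.91 and -0.62 in the same order, and after adjustment the one of Per3 passed (adjusted p = 0.0456). Before scaling, the highest processed signal of Clock was 3.09 times its lowest, that of Dbp 1.63 times and that of Per3 1.59 times, while the 75th percentile differed 2.30 times. For the other 7 genes the adjusted p of r with brightness ran from 0.217 to 0.77. The part of brightness in the correlations among Clock, Per3 and Dbp was not tested.

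**Figure D4:**
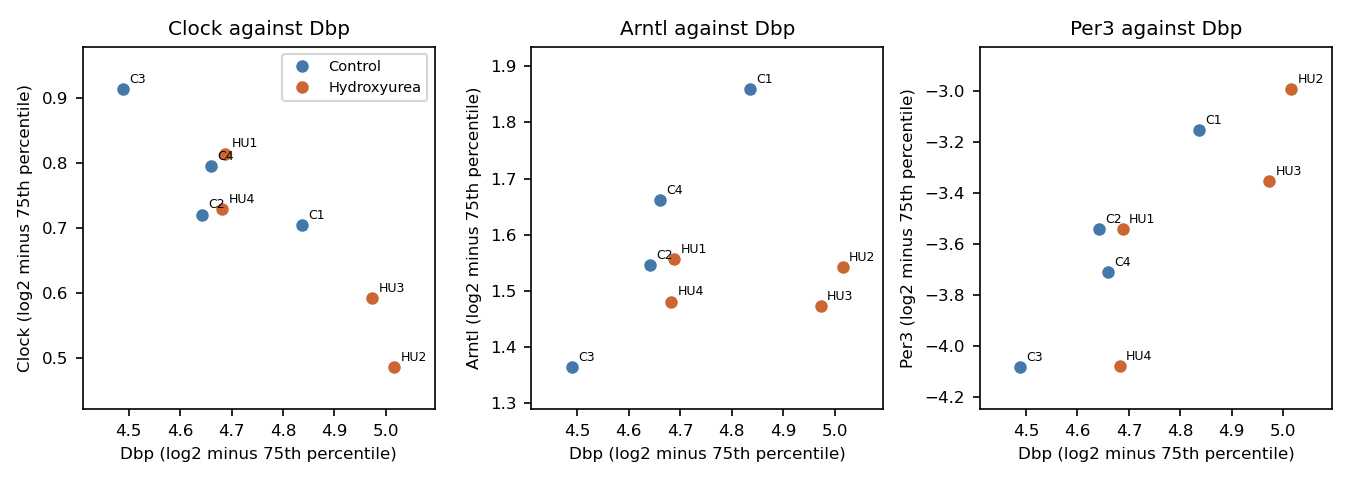
Scaled levels (log2 processed signal minus the 75th percentile of the array) of Clock, Arntl and Per3 on the vertical axes against Dbp on the horizontal axes, 1 point per mouse (C, Control; HU, Hydroxyurea). Clock runs downward along Dbp (r = -0.94), Arntl shows no such order (r = 0.28) and Per3 runs upward with Dbp (r = 0.84).

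Arntl was not negatively correlated over the 8 mice with the genes it runs opposite to across a day. Arntl and Nr1d1 had r = 0.61 (exact permutation p = 0.106, adjusted p = 0.476), which went to 0.02 without Control 1 and to -0.93 without Control 1 and Control 3, the mice farthest from the median of Arntl (exact permutation p = 0.00278, adjusted p = 0.125). Arntl and Dbp had r = 0.28 (exact permutation p = 0.526). Nr1d1 and Dbp, which peak close together in a daily cycle, had r = 0.61 (exact permutation p = 0.103). Per2 and Nr1d1 had r = 0.87 (exact permutation p = 0.00811, adjusted p = 0.162), and 0.70 without Control 1. Arntl and Cry2 had r = 0.83 (exact permutation p = 0.0144, adjusted p = 0.162), and 0.61 without Control 1.

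Of the 16 pairs that join an activator with a repressor or Dbp, 7 were negative and 9 positive, with a median r of 0.20, and without Control 1 the median was -0.03 with 8 negative. Of the 28 pairs among repressors and Dbp, 23 were positive, with a median r of 0.38, or 0.20 without Control 1. Arntl and Clock had r = -0.15. Without Control 1, 3 of the 45 pairs had an unadjusted exact permutation p under 0.05.

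**Figure D5:**
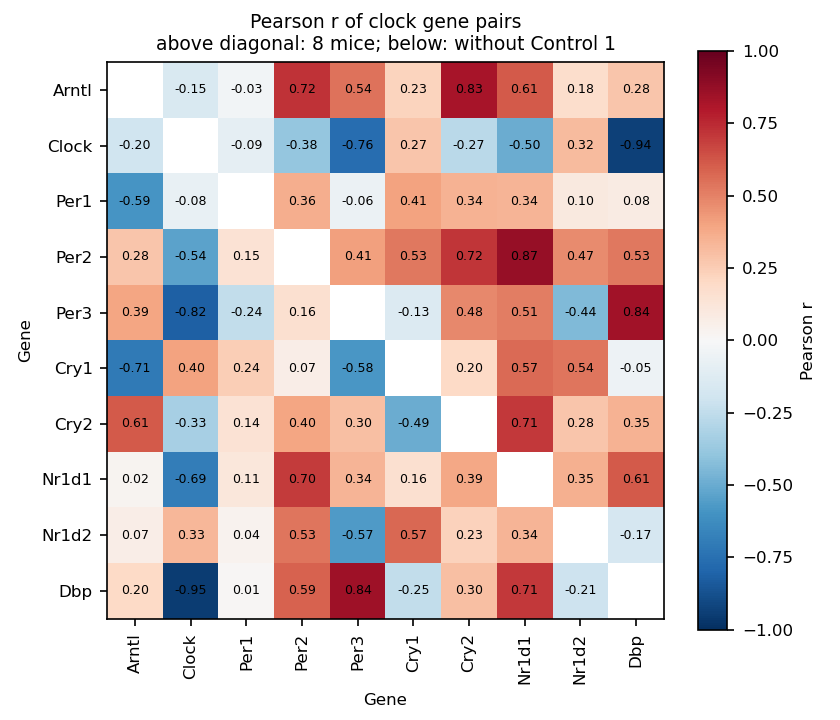
Pearson r of each pair of clock genes over 8 mice (above the diagonal) and over 7 mice without Control 1 (below it), on a colour scale from -1 to 1. The strongest cell is Clock with Dbp, and many positive values of Arntl and Cry2 are smaller or negative below the diagonal.

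The mice differed in how often they stood at an extreme. Control 1 was the highest of the 8 for 5 members and the lowest for 0, whereas over all genes it was highest for 20.6% and lowest for 21%. Control 3 was lowest for 6 members (Arntl, Per2, Per3, Cry2, Nr1d1 and Dbp) and highest for Clock, and over all genes it was lowest for 19.7%. The mean deviation of all 10 genes was 0.22 in Control 1 and -0.13 in Control 3, and between -0.07 and 0.08 in the other 6 mice. The SD within groups placed Per3 at percentile 89.7 of the 16618 genes and Nr1d1 at percentile 82.2. Without Control 1, Nr1d1 was at percentile 56.3 and Per3 at percentile 90.5. The other 8 members ranged from percentile 30.2 for Cry2 to percentile 63.5 for Cry1. Dbp, a transcript of wide daily swing in most tissues, was at percentile 53, or 58.7 without Control 1.

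Within the treated group the 2 mice of 24 weeks were compared with the 2 of 19 weeks, in a limma fit with 3 group means that used the spread of all 8 mice. No member passed, and all 10 adjusted p-values were 1. Over all genes 0% passed the adjusted threshold, with 1.26% higher and 1.44% lower at 24 weeks by an unadjusted p under 0.05, and 0 of the 10 members had such a p. Per1 was 3.34 and 3.52 in the older mice and 3.73 and 3.60 in the younger, a difference of -0.24 ± 0.11 (SE; limma unadjusted p = 0.064). Nr1d2 was 1.59 and 1.33 against 1.63 and 1.74, a difference of -0.22 ± 0.12 (SE; limma unadjusted p = 0.117). For both genes the older mice lay below the younger, as they also did for Per2, Cry1, Cry2 and Nr1d1. For Arntl they lay above. The share of all genes with such an order was not computed, and with 2 mice of each age it says little. Per3 differed by 0.45 ± 0.36, Nr1d1 by -0.24 ± 0.29 and Cry1 by -0.16 ± 0.19, and the other members by -0.09 to 0.07. Leaving out each treated mouse in turn moved these differences widely, from 0.087 (without Hydroxyurea 4) to 0.81 (without Hydroxyurea 3) for Per3 and from -0.28 (without Hydroxyurea 1) to -0.05 (without Hydroxyurea 2) for Cry1. The range was -0.33 to -0.14 for Per1 and -0.35 to -0.09 for Nr1d2. No Control mouse was 24 weeks old, so age could be examined only within treatment. All treated mice had 10 weeks of hydroxyurea, begun at 9 to 14 weeks of age. Age at the end and age at the start of treatment therefore cannot be told apart.

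A wider list held 30 further genes of the clock, its modifying enzymes and its outputs, of which 29 were tested. None passed the adjusted threshold in limma, 15 were higher and 14 lower in the treated mice, and the median difference was 0.04. By an unadjusted p under 0.05, 0 were higher and 3 lower, and 1 lay wholly above and 2 wholly below the Control mice, against the percentages of all genes given above.

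The 3 other activators described had higher means. Npas2, which can stand in for CLOCK in the forebrain, read -2.88, -3.60, -3.64 and -3.82 in the Control mice and -2.93, -3.11, -3.23 and -3.34 in the Hydroxyurea mice. All treated mice were above Control 2, 3 and 4, and Control 1 was the highest of the 8, as for Nr1d1, and the difference was 0.33 ± 0.20 (SE, n = 4 per group; limma adjusted p = 0.594). Rora and Rorb, nuclear receptors that activate Arntl through the element that REV-ERB proteins occupy, differed by 0.10 ± 0.29 and 0.21 ± 0.13. Among the other repressors, Ciart, an inhibitor of BMAL1 and CLOCK, read -1.17, -1.54, -1.58 and -1.73 in the Control mice and -1.42, -1.23, -1.05 and -1.18 in the Hydroxyurea mice. Again all treated mice exceeded Control 2, 3 and 4, with a difference of 0.28 ± 0.13 (SE; limma adjusted p = 0.521). Bhlhe40 and Bhlhe41, repressors that compete at E-boxes, differed by -0.02 ± 0.15 and 0.14 ± 0.09.

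Nfil3 encodes E4BP4, a repressor that competes with DBP for D-boxes. It read 0.84, 0.88, 0.86 and 0.93 in the Control mice and 0.37, 0.50, 0.75 and 0.74 in the Hydroxyurea mice. Every treated mouse was lower than every Control mouse, and the 2 treated mice of 24 weeks were the lowest. The difference was -0.29 ± 0.10 (SE, n = 4 per group), with an unadjusted p of 0.0166 and a limma adjusted p of 0.476, so it did not pass. Tef and Hlf, which share the D-box with Dbp, differed by -0.08 ± 0.06 and 0.15 ± 0.21. Hlf was 3.44 in Control 1 against 2.58 to 2.68 in the other Control mice and 2.69 to 3.31 in the treated mice.

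Enzymes that set the speed of the loop gave 3 higher and 5 lower means. Fbxw11, a ubiquitin ligase subunit that takes PER proteins to degradation, differed by -0.22 ± 0.06 (SE, n = 4 per group; unadjusted p = 0.00804; limma adjusted p = 0.452) and its groups did not overlap. Its paralog Btrc differed by -0.13 ± 0.09. The kinases Csnk1d and Csnk1e, which phosphorylate PER proteins, differed by -0.11 ± 0.06 and 0.05 ± 0.08. Among coregulators, Sirt1, a deacetylase that binds CLOCK, differed by -0.29 ± 0.10 (unadjusted p = 0.0244; limma adjusted p = 0.484). Wdr5, a histone methyltransferase subunit found with PER1, differed by 0.11 ± 0.08 (unadjusted p = 0.197; limma adjusted p = 0.65). Its groups did not overlap but all but touched, with 1.447 in both Control 4 and Hydroxyurea 1. Control 1 stood apart at 1.17, below the other Control mice at 1.42 to 1.45. The 5 outputs that cycle in many tissues, Usp2, Tsc22d3, Tspan4, Wee1 and Nampt, differed by -0.16 to 0.11.

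Systemic cues that feed into tissue clocks were read from lists of their response genes. Of the 8 glucocorticoid-induced genes, all 8 had lower means in the treated mice (median -0.16), against 51.27% of all genes, and 0 passed. Errfi1, a feedback inhibitor of EGF receptor signalling, was the 1 with an unadjusted p under 0.05, against 6.36% of all genes, at -0.33 ± 0.09 (SE, n = 4 per group; unadjusted p = 0.00655; limma adjusted p = 0.452). Their score, the mean log2 deviation from the 8-mouse means, was highest in Control 3, at 0.60, the mouse in which 6 clock members were lowest, and otherwise ran from -0.18 to 0.16 among Control mice and from -0.25 to 0.12 among treated mice. Of 11 immediate early genes, which neurons switch on with activity, 9 were lower, 3 of them (Arc, Egr1 and Nr4a1) with an unadjusted p under 0.05 and none past the adjusted threshold, against the same 51.27% and 6.36% of all genes. Of 6 tested genes that follow body temperature, 3 were higher. The cold-induced Rbm3 read 3.50, 3.53, 3.42 and 3.62 in the Control mice and 4.03, 3.54, 3.95 and 3.86 in the Hydroxyurea mice, a difference of 0.33 ± 0.11 (SE; unadjusted p = 0.0171; limma adjusted p = 0.476). The part of these cues in the clock values was not tested.

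Markers of neighbouring tissue varied between the dissections. The same score over 7 choroid plexus markers ran from -2.13 in Control 1 to 0.85 in Control 3 among the Control mice and from -1.10 in Hydroxyurea 1 to 2.63 in Hydroxyurea 4 among the treated mice. All 7 markers had higher means in the treated mice, with a median of 1.30, and 0 passed. Of the hypothalamic markers, which include Avp and Vip of the suprachiasmatic nucleus, 4 of 5 were tested and 3 had higher means, with scores from -0.36 to 0.29 among Control mice and from -0.38 to 0.92 among treated mice. Avp was dim and Six6 did not reach the filter. Vip read from 0.33 to 0.88 over all mice, and whether its signal came from hypothalamic tissue was not tested. The 4 tested thalamic markers had scores of -0.27 to -0.07 among Control mice and -0.15 to 0.82 among treated mice, the highest in Hydroxyurea 3. The 4 astrocyte markers, for cells that carry a clock of their own, scored -0.10 to 0.05 among Control mice and -0.07 to 0.14 among treated mice. Their part in the clock values was not tested.

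As a description of which genes ran most like Dbp over the 8 mice, Pearson's r was ranked over 15547 tested genes outside the 10. The highest were Sgta (0.98), Gmppb (0.97), Grm2 (0.97), Ddx41 (0.96), Stk10 (0.96) and Rnf157 (0.96). The lowest were Ttc26 (-0.98), Rpl36al (-0.98), Rab3il1 (-0.97), Vwa5a (-0.97), Gnai3 (-0.97) and H3c3 (-0.96). None of these 12 is on the clock lists used here. On the same scale the r of Clock with Dbp lay at percentile 0.253 of all tested genes and that of Per3 at percentile 97. Of the further clock genes, Rorb had 0.83, Crebbp 0.83, Bhlhe41 0.81, Ncor1 0.80, Hlf 0.78 and Ciart 0.73. Others ran the opposite way, among them Sirt1 at -0.87, Prkaa1 at -0.86, Nampt at -0.65 and Hdac3 at -0.59. Of the genes that share the D-box, Tef had -0.02 and Nfil3 -0.38. Scaled Dbp itself moved with the brightness of the array (r = -0.81, given above). The part of brightness in these correlations with Dbp was not tested.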

How the data were processed

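Hippocampal RNA of 8 mice was read on Agilent 1-colour arrays, from 200 ng of RNA each per the labels' protocols. Per the file headers, Feature Extraction 12.0.3.1 gave each of 62976 spots a deposited processed signal intensity, background-subtracted within an array and not scaled between arrays. The value table that the authors deposited was found to hold z scores of log signal, computed array by array. Recomputed scores differed by at most 0.005. It served for directions and counts and gave no folds.

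Probes were named by RefSeq accession (GRCm38.p6; 28331 of 55681 non-control probes, 21368 genes), and promoter windows are RefSeq's. Where a gene had several probes (5754 genes), the one with the highest mean stood for it. Log2 intensity minus the 75th percentile of the array was tested where at least 4 of 8 arrays had the gene well above background. The treatment test was two-sided, by lmFit with eBayes (limma 3.58.1, R 4.3.3). Its p-values were adjusted by Benjamini-Hochberg over the 16618 genes and held to a threshold of 0.05. Correlations over mice used exact permutation of pairings (SciPy 1.17.1). Precision is limited by 4 arrays per group, and no spot was saturated. The labels do not say more of the replicates than that they are separate samples, so p-values measure the spread between these samples.

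On simulated data with 200 of 16618 genes changed, the treatment fit recovered 55.1% at a fold of 1.5, 69.6% at a fold of 2 and 95.2% at a fold of 3, with 6 false calls. The age fit recovered 14.1%, 57.6% and 68.6% at these folds, with 1 false call.

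The members, lists and tests were chosen with earlier results of these data known. Named genes are the 10 members, measured genes of the fixed lists (some items are not reported here and were left out of the lists' counts), and the 6 highest and 6 lowest in r with Dbp, without clone or locus names. Replicate numbers are not stated to pair mice; deviations of same-numbered mice correlated at 0.05, 0.20, -0.21 and -0.06, so no pairing was used. Alternatives were other scalings, background correction, the value table, filters, probe rules, age, a replicate block, another variance model and leaving out mice. Normexp with an offset of 50 used the median spot signal. The correlations without Control 1 and those with brightness were added after seeing the data.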

Additional observations from a re-analysis of the deposited data

Results flagged for a closer look

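In 8 of 84 groups of 4 mice, taken from the members, the 29 further clock genes and 3 scores over the members, 1 mouse stood far from the other 3 by Dixon's criterion, where chance gives about 1 group in 20. None was a member or a score, and 5 of the 8 concerned Control 1. Over all genes Control 1 was the highest mouse for 20.6% and the lowest for 21%. The share of all genes with such a mouse by Dixon's criterion was not computed, so the count does not set the clock genes apart from other genes. Values are log2 signal minus the 75th percentile of the array. In Control 1, Hlf was 3.44 against 2.58 to 2.68 in the other Control mice. Usp2, a deubiquitinase that cycles in many tissues, was 3.004 there against 2.67 to 2.72. The kinase gene Gsk3b was 4.39 against 3.96 to 4.03, and the AMP-activated kinase subunit gene Prkaa2 was 1.41 against 1.11 to 1.14. Wdr5 was 1.17 in Control 1 against 1.42 to 1.45, and 1.54 in Hydroxyurea 3 against 1.45 in each of the other treated mice. The ubiquitin ligase gene Fbxl21 was -2.02 in Hydroxyurea 1 against -2.97 to -2.84. Ncor1, a corepressor of REV-ERB proteins, was 1.69 in Hydroxyurea 4 against 1.87 to 1.89.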

How the results depend on the processing

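The number of genes at an adjusted p under 0.05 was 0 under every alternative run for treatment. The number at an unadjusted p under 0.05 was 1643 of 16618 genes, and 2483 of the 21368 genes tested without the filter on dim probes. It ran from 1110 to 2522 (without Control 1) of 16618 genes when each mouse was left out. With a replicate block it was 1317, and no call changed. Of these genes 64.3% were lower, against 90.8% with median centring, which moved the median of all genes by -0.08, and 39.3% without the filter. The number of correlated pairs at an adjusted p under 0.05 went from 1 to 0 with quantile normalization, with median centring, without the 2 mice farthest from the median, and without Control 1. The treatment difference kept its sign under all alternatives for Arntl, Clock, Nr1d1 and Dbp, but its size moved, for Arntl from -0.18 (median centring, or without Control 3) to -0.01 (without Control 1). It turned with median centring for Per2 (-0.075) and Nr1d2 (-0.049), with normexp for Cry1 (0.12) and Nr1d2 (-0.01), and in z score units of the value table for Per1 (0.005), Per2 (-0.007), Per3 (-0.005) and Cry2 (0.018). With age as a covariate, and in mice of 19 weeks only, Per1 was 0.03, Per3 -0.094 and Cry1 0.078, and Cry1 was 0.16 without Control 1 and Hydroxyurea 2. Leaving out each mouse gave -0.033 to 0.078 for Per2, -0.036 to 0.327 for Per3, -0.079 to 0.097 for Cry1 and -0.023 to 0.114 for Nr1d2. For age, the difference turned with median centring for Arntl (-0.012) and Dbp (-0.061) and with normexp for Cry1 (0.056) and Dbp (-0.031), and leaving out each treated mouse gave -0.18 to 0.15 for Clock and -0.14 to 0.19 for Dbp. The cause of these turns was not tested. The number of arrays and a single spot per probe limit the precision.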
